A study of Mus musculus with 8 samples.

Results

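The genes described here are 8 established targets of the glucocorticoid receptor and the gene of the receptor itself: Fkbp5, Tsc22d3, Sgk1, Zbtb16, Dusp1, Klf9, Ddit4, Pdk4 and Nr3c1. They were taken by gene name as 9 of the 56748 genes in the count table, and all 9 passed the filter on low counts, which kept 18495 genes. RNA of whole skin was sequenced from 8 male mice aged 35 weeks that received no treatment. The wild-type group (NPY +/+, WT) held 5 mice, and the NPY-tet group (NPY tet/tet) held 3 siblings homozygous for the Npy allele of strain B6;129S4-Npytm2Rpa/J. Each library came from 1 mouse. The allele is carried by the whole animal and whole skin is a mixture of epidermis, hair follicles, dermis, fat and muscle. In such bulk RNA, fewer cells of a type and less RNA per cell cannot be told apart.

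Glucocorticoids, corticosterone in the mouse, enter cells and bind the receptor encoded by Nr3c1, which waits in the cytoplasm in a complex with heat shock proteins and immunophilins. The bound receptor moves to the nucleus, binds palindromic response elements as a dimer and switches on genes that restrain inflammation, end the hormone signal, arrest growth and shift fuel use. Skin responds strongly to glucocorticoids and can also convert them locally with the enzymes of the Hsd11b genes.

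Npy itself stood at 0.237 ± 0.148 CPM (counts scaled to library size with TMM factors; mean ± SD, n = 5) in WT mice and at 308 ± 11.6 CPM (n = 3) in NPY-tet mice. It was the only gene of all 18495 to pass edgeR's quasi-likelihood test (log2 fold change 10.37, SE 0.28, adjusted p = 3.60e-09), which makes 0.00541% of genes called. Libraries held 31370433 to 47495565 counts. The share of counts from ribosomal RNA genes was 6.54% to 8.13% in 5 libraries (WT replicates 1, 2, 3 and 5 and NPY-tet replicate 1), called rRNA-rich below, and 0.0449% to 0.0799% in the other 3, called rRNA-poor (WT replicate 4 and NPY-tet replicates 2 and 3). The skin markers Krt5, Krt14, Krt10 and Col1a1 were present in every library, though summed fibroblast markers stood at 2497 CPM in NPY-tet replicate 1 against 10220 to 24030 CPM in WT mice. Of the 7 fibroblast markers 5 were lowest in that mouse, at 0.079 (Col1a1) to 0.91 (Dcn) times the WT mean. Pdgfra (72.7 CPM) and Pdgfrb (68.4 CPM) lay within the WT range there. Fold changes below are log2 of NPY-tet over WT with their standard error (SE), and p-values are two-sided and adjusted by the Benjamini-Hochberg method over all genes tested.

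None of the 9 genes passed the test, by edgeR, by DESeq2 (0.299% of its genes called) or by limma-voom (0.0162% called). An unadjusted p under 0.05 in edgeR's test was reached by 3 of 9 (Fkbp5, Zbtb16 and Dusp1), against 5.98% of all genes. All 3 were higher in NPY-tet mice, as 2.43% of all genes were at that p. The fitted fold change lay above 0 for 8 of 9 genes, all but Nr3c1, against 50.7% of all genes. The median over the 9 was 0.38 on the log2 scale, and that over all genes tested was 0.0041. Dusp1 was the only one of the 9 whose NPY-tet values all lay above the WT values, a pattern shown by 1.81% of all genes.

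**Figure D1:**
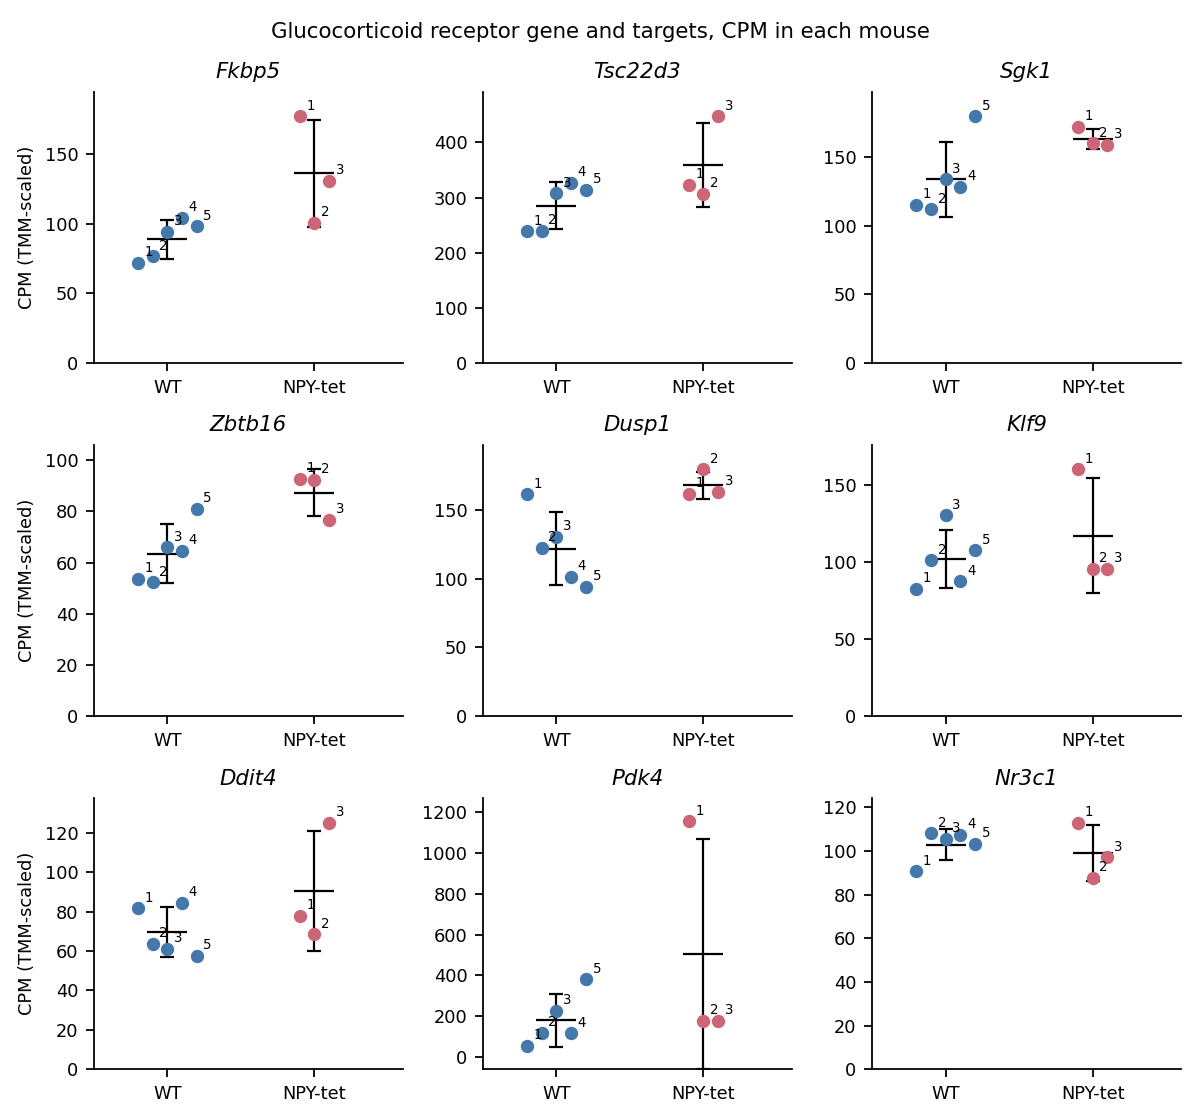
CPM (TMM-scaled, vertical axis) of the receptor gene Nr3c1 and its 8 targets in each mouse, with blue points for WT (n = 5), red points for NPY-tet (n = 3), digits giving the replicate, horizontal lines the mean and bars the SD. Only for Dusp1 do all 3 red points lie above all 5 blue points, and the Pdk4 mean of the NPY-tet group is set by replicate 1 at 1156 CPM.

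Promoter sequences are shown for 4 targets. Sgk1 carries the single palindromic response element found, Fkbp5 and Dusp1 had the smallest p-values among genes with a match to any motif searched, and Pdk4 differed most between mice. They come from RefSeq (build GRCm38.p6) and give the 250 bases before an annotated start, 5′ to 3′ on the strand of the gene, with motif matches in capitals. In Sgk1 (chr10:21993640-21993889, plus strand) the capitals mark an E-box and the response element, in Fkbp5 (chr17:28486150-28486399, minus strand) an E-box, and in Dusp1 (chr17:26508473-26508722, minus strand) a cyclic AMP response element and an E-box. The Pdk4 window (chr6:5496279-5496528, minus strand) held no match.
Sgk1: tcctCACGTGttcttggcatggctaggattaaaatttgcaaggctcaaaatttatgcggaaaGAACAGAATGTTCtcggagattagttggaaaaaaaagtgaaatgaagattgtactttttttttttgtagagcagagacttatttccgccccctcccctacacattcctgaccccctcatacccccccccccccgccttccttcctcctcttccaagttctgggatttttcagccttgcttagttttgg
Fkbp5: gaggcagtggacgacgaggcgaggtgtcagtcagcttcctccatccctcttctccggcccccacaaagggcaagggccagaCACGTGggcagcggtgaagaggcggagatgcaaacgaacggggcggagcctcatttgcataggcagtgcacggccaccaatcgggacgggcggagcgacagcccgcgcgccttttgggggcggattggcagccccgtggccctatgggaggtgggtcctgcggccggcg
Dusp1: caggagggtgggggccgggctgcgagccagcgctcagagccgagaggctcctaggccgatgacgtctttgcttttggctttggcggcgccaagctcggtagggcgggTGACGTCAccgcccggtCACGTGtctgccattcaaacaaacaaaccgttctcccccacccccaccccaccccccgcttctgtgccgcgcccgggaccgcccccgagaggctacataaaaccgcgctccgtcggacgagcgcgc
Pdk4: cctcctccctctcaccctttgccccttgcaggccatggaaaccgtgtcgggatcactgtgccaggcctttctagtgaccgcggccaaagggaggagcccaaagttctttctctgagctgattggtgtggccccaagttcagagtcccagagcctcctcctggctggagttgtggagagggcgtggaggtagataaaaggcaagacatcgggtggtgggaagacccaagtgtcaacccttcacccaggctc

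Of the 9 genes 7 had entries among the promoter windows searched, with 14 windows in all, 6 of them for Sgk1 and 3 for Tsc22d3. Zbtb16 and Nr3c1 had none in that set, which may not hold every annotated start. Their promoters were thus not searched, and the shares of windows given below refer to that set alone. The full palindrome, GNACA and TGTNC with any 3 bases between them, searched on both strands like all motifs, was found in 0.39% of 32536 windows of the same length and in 1 of the 14, where it reads GAACAGAATGTTC and begins 188 bases before the Sgk1 start. The single receptor hexamer AGAACA, which overlaps the palindrome, was in 16.0% of all windows and was present for 2 genes, Sgk1 and Tsc22d3. The E-box CACGTG, bound by clock factors among others, was in 6.04% of windows and present for Fkbp5 (169 bases before the start), Dusp1 (126 bases) and Sgk1 (246 bases). The cyclic AMP response element TGACGTCA was in 1.56% of windows and present 143 bases before the Dusp1 start. The forkhead motif TGTTTAC was in 3.17% of windows and present for Klf9 alone, 100 bases before its start. The counts are per gene, so the starts in use could not be told apart.

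The receptor gene Nr3c1 was measured at 90.7, 108, 105, 107 and 103 CPM in WT replicates 1 to 5 and at 113, 87.6 and 97.1 CPM in NPY-tet replicates 1 to 3. Both the highest and the lowest library belonged to the NPY-tet group. The fitted log2 fold change was -0.053 (SE 0.12, edgeR adjusted p = 0.940). It had the smallest spread of the 9 genes among WT mice, with a coefficient of variation of 6.92%, against 72.7% for Pdk4, the most variable.

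Fkbp5 (mm39 chr17:28618068-28736501, minus strand) encodes an immunophilin that binds the receptor complex and lowers its affinity for hormone, so that it acts as a feedback brake. It stood at 71.8, 76.6, 94.0, 104 and 98.2 CPM in WT replicates 1 to 5 and at 177, 101 and 131 CPM in NPY-tet replicates 1 to 3. NPY-tet replicates 1 and 3 lay above every WT mouse, whereas replicate 2 lay within the WT range. The log2 fold change was 0.61 (SE 0.18, edgeR adjusted p = 0.667, unadjusted p = 0.0063), or 0.38 (SE 0.18) without NPY-tet replicate 1. Within the rRNA-rich libraries, where NPY-tet replicate 1 is compared with 4 WT mice, it was 1.08 (SE 0.21) and passed edgeR's test (adjusted p = 0.0247), in a fit that called 1.66% of genes. Within the rRNA-poor libraries, NPY-tet replicates 2 and 3 against WT replicate 4, it was 0.14 and did not pass, in a fit that called 1.17% of genes.

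Tsc22d3 (mm39 chrX:139440277-139501408, minus strand) encodes GILZ, a leucine zipper protein that carries part of the anti-inflammatory action of glucocorticoids. Its values were 239, 239, 308, 326 and 314 CPM in WT replicates 1 to 5 and 323, 306 and 447 CPM in NPY-tet replicates 1 to 3. Only NPY-tet replicate 3 lay above the WT range. The log2 fold change of 0.33 (SE 0.18, edgeR adjusted p = 0.796) was 0.15 without that mouse.

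Fkbp5 and Tsc22d3, both widely used readouts of receptor activity, kept a narrow ratio in most mice. Their FPKM ratio, which corrects for gene length, was 0.138, 0.147, 0.140, 0.147 and 0.143 in WT replicates 1 to 5. In NPY-tet replicates 2 and 3 it was 0.151 and 0.134, while in replicate 1 it was 0.251. In that mouse Fkbp5 stood at 1.99 times the WT mean and Tsc22d3 at 1.13 times. This pair was the closest, and other pairs of the 9 genes differed. Pearson's r of log2 CPM over the 5 WT mice ranged from -0.83 (Klf9 and Ddit4) to 0.99 (Fkbp5 and Tsc22d3). Fkbp5 and Dusp1 were at -0.81.

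Sgk1 (mm39 chr10:21758083-21875802, plus strand) encodes a serum- and glucocorticoid-regulated kinase that promotes sodium uptake and cell survival. WT replicates 1 to 5 had 115, 112, 134, 128 and 179 CPM, and NPY-tet replicates 1 to 3 had 172, 160 and 158 CPM. WT replicate 5 held the highest value, and the 3 NPY-tet mice lay between it and the other WT mice. Its log2 fold change was 0.29 (SE 0.16, edgeR adjusted p = 0.796).

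Zbtb16 (mm39 chr9:48565597-48747522, minus strand) encodes PLZF, a zinc finger repressor of transcription that is strongly induced by glucocorticoids in many cells. WT replicates 1 to 5 gave 53.7, 52.2, 66.0, 64.4 and 81.0 CPM and NPY-tet replicates 1 to 3 gave 92.6, 92.3 and 76.6 CPM. The groups overlapped only through WT replicate 5 and NPY-tet replicate 3. Zbtb16 had a log2 fold change of 0.46 (SE 0.15, edgeR adjusted p = 0.724, unadjusted p = 0.0119).

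Both genes were high in the libraries with the highest values of hair follicle markers. The mean log2 CPM of 11 hair shaft and matrix markers, of 12 listed, was 1.37, -2.44, -1.21, -1.68 and 6.23 in WT replicates 1 to 5, whereas NPY-tet replicates 1 to 3 had 4.16, 5.96 and 2.25. Summed over the markers, this was 4.84 to 1058 CPM in WT mice and 69.1 to 861 CPM in NPY-tet mice, and 4 of the markers (Krt33b, Krt34, Krt81 and Krt86) had no count in WT replicate 2. The 69.1 CPM belonged to NPY-tet replicate 3, against 32.9 CPM in WT replicate 1. The 4 libraries with the highest hair values, WT replicate 5 and the 3 NPY-tet mice, were also the 4 with the highest Sgk1 and the 4 with the highest Zbtb16. They include the whole NPY-tet group, so hair values and genotype are largely confounded here. With the hair score as a covariate, chosen after seeing the data, the log2 fold change of Sgk1 was 0.10 (SE 0.16). That of Zbtb16 was 0.27 (SE 0.17). Each had an edgeR adjusted p of 0.998, a value that Fkbp5 shared in that fit at a log2 fold change of 0.62. With the mean log2 CPM of white adipocyte markers as the covariate, Sgk1 was at 0.17 (SE 0.19) and Zbtb16 at 0.29 (SE 0.18). With that of skeletal muscle markers they were at 0.28 and 0.43. The part of hair follicle content in these values was not tested beyond the fit with the hair score.

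**Figure D2:**
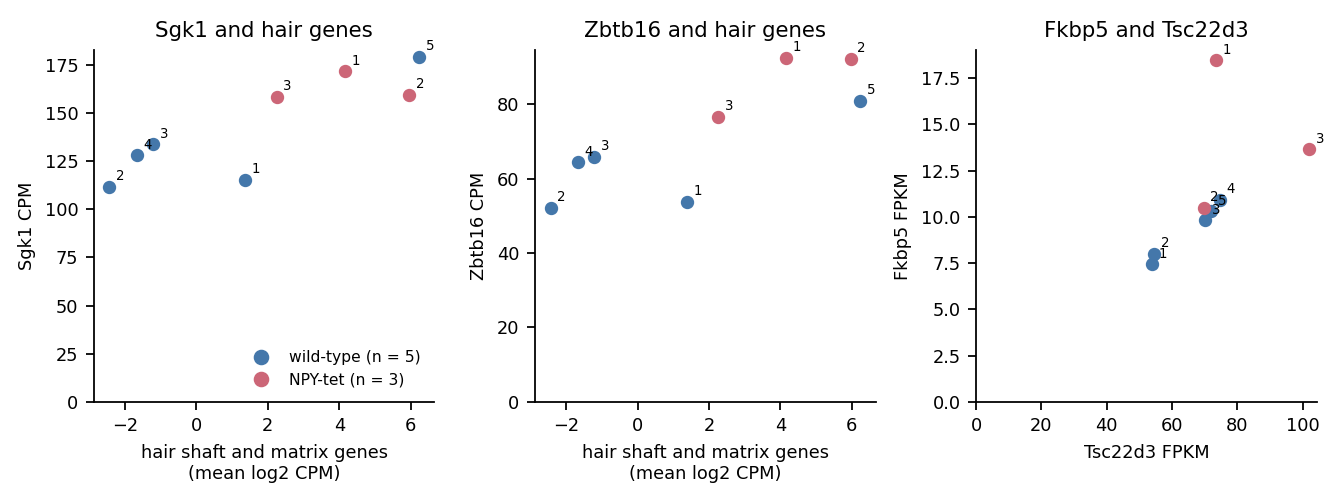
Left and middle, CPM of Sgk1 and Zbtb16 against the mean log2 CPM of the hair shaft and matrix markers in each mouse. Right, FPKM of Fkbp5 against FPKM of Tsc22d3, with blue points for WT (n = 5), red points for NPY-tet (n = 3) and digits for the replicate; NPY-tet replicate 1 lies above the line of the others, at a ratio of 0.251.

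Dusp1 encodes a phosphatase that switches off MAP kinases and is also an immediate early gene, induced within minutes by many stimuli. It was measured at 161.3, 123, 130, 101 and 94.1 CPM in WT replicates 1 to 5 and at 161.6, 179 and 163 CPM in NPY-tet replicates 1 to 3. No NPY-tet value fell into the WT range, but the margin was narrow, with WT replicate 1 just under NPY-tet replicate 1. For Dusp1 the log2 fold change was 0.46 (SE 0.17, edgeR adjusted p = 0.783, unadjusted p = 0.0184). Without NPY-tet replicate 1 it was 0.50, and both remaining NPY-tet mice lay above every WT mouse, as for 3.29% of all genes. The gene, at mm39 chr17:26724564-26781102 on the minus strand, overlaps Ergic1 on the opposite strand, which held 21406 counts in all libraries against 40246 for Dusp1. The libraries keep no strand, so reads of the overlap cannot be assigned to either with certainty.

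Klf9 (mm39 chr19:23118590-23145498, plus strand) encodes a Krüppel-like transcription factor that slows keratinocyte proliferation. It stood at 82.6, 101, 130, 87.6 and 108 CPM in WT replicates 1 to 5. In NPY-tet replicates 1 to 3 it stood at 160, 95.6 and 95.8 CPM. NPY-tet replicate 1 was the highest of the 8 mice and the other NPY-tet mice lay inside the WT range. A log2 fold change of 0.20 (SE 0.20, edgeR adjusted p = 0.850) turned to -0.084 (SE 0.18) without NPY-tet replicate 1.

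Ddit4 (mm39 chr10:59785491-59787656, minus strand) encodes REDD1, an inhibitor of mTORC1 signalling that responds to stress and glucocorticoids. In CPM, WT replicates 1 to 5 stood at 81.6, 63.6, 61.0, 84.4 and 57.4, and NPY-tet replicates 1 to 3 at 77.9, 68.4 and 125. Only NPY-tet replicate 3 lay outside the WT range, above it. The log2 fold change of 0.38 (SE 0.20, edgeR adjusted p = 0.796) was 0.076 without this mouse.

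Pdk4 (mm39 chr6:5483351-5496309, minus strand) encodes a kinase that inhibits pyruvate dehydrogenase and so spares glucose in fasting, in muscle and fat above all. WT replicates 1 to 5 gave 52.6, 116, 226, 113 and 380 CPM, a 7.23-fold range. NPY-tet replicate 1 gave 1156 CPM, from 44882 counts, and replicates 2 and 3 gave 176 and 177 CPM. The first was 3.04 times the highest WT mouse and 6.54 times the mean of the other NPY-tet mice, which lay close to the WT mean of 178 ± 129 CPM. Pdk4 had a fitted log2 fold change of 1.503 with an SE of 0.88 (edgeR adjusted p = 0.805), and of -0.0039 (SE 0.76) without NPY-tet replicate 1. Summed skeletal muscle markers (11 of 12 tested) were 38405 to 92698 CPM in WT mice and 41492 in NPY-tet replicate 1, and summed white adipocyte markers (10 of 10) were 4583 to 7970 CPM and 3675 CPM. By mean log2 CPM, in which each marker counts alike, the muscle list stood at 10.5 in that mouse, below the WT range of 10.8 to 12.1, and 5 of its 11 markers were lowest there. No marker of either list was at 0 in any library. With the muscle score as a covariate the log2 fold change of Pdk4 was 0.67 (SE 1.35), and with the adipocyte score 0.52 (SE 1.12), neither of which passed edgeR's test.

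**Figure D3:**
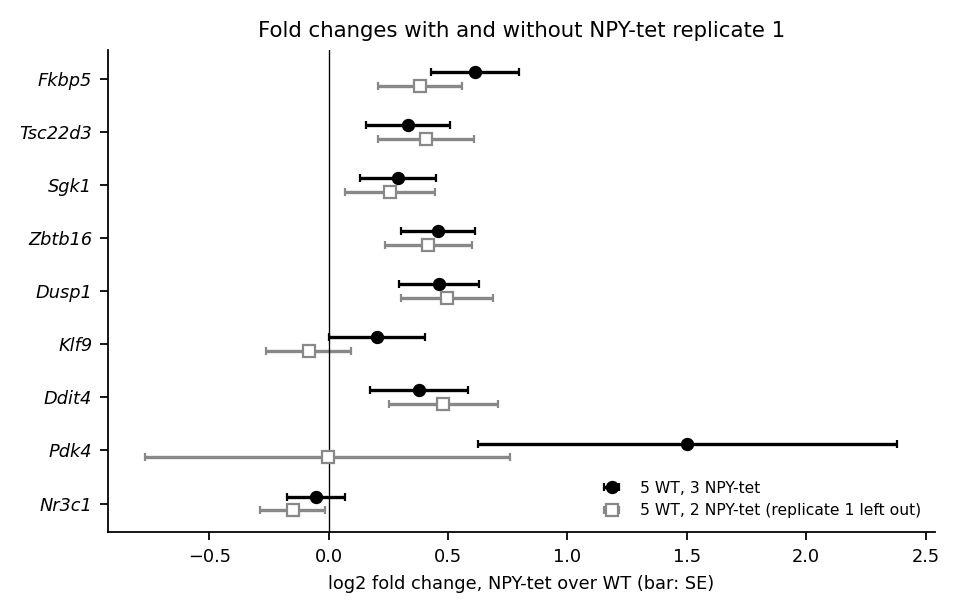
Log2 fold change of NPY-tet over WT (horizontal axis) for each of the 9 genes, with bars for the SE, from all 8 mice and from 7 mice without NPY-tet replicate 1. Pdk4 moves from 1.503 to -0.0039 and Klf9 from 0.20 to -0.084, while Dusp1 stays near 0.46 to 0.50.

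For each of the 8 targets, log2 CPM was set against the WT mean of log2 CPM. The median deviation was -0.23, -0.22, 0.11, 0.00048 and 0.16 in WT replicates 1 to 5, whereas NPY-tet replicates 1 to 3 had 0.50, 0.23 and 0.38. The targets above their WT mean of log2 CPM numbered 8 of 8 in NPY-tet replicate 1, 6 in replicate 2 and 7 in replicate 3. WT replicates 3 and 5 had 7 and 6 targets above that mean. Pdk4 counts as above in NPY-tet replicates 2 and 3, though at 176 and 177 CPM both lay just under its mean WT CPM of 178. NPY-tet replicate 1 held the highest value of 5 of the 9 genes (Fkbp5, Zbtb16, Klf9, Pdk4 and Nr3c1), and of 18.2% of all genes tested. Different mice carried different targets, since Tsc22d3 and Ddit4 peaked in NPY-tet replicate 3, Dusp1 in NPY-tet replicate 2 and Sgk1 in WT replicate 5.

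Per length, in WT mice, Tsc22d3 was the most abundant of the 9 at 65.0 ± 10.0 FPKM (SD, n = 5), followed by Pdk4 at 50.1 ± 36.6, Ddit4 at 39.2 ± 6.94 and Dusp1 at 36.4 ± 7.69 FPKM. Sgk1 stood at 27.0 ± 5.58, Klf9 at 20.9 ± 3.91, Nr3c1 at 13.2 ± 0.974, Zbtb16 at 11.9 ± 2.22 and Fkbp5 at 9.29 ± 1.51 FPKM. Neighbours in this order overlapped in their WT ranges, except that every WT value of Klf9 exceeded every WT value of Nr3c1.

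For each gene the 3 genes most like it were found by Pearson's r of log2 CPM over the 8 mice, among 11415 genes whose mean reached 5 CPM, as a description of mice that share depth and tissue makeup. Fkbp5 was most like Acer2, an alkaline ceramidase gene (r = 0.97), Lama3 and Tmem167b. Tsc22d3 was most like the clock repressor gene Cry1 (r = 0.90), Adarb1 and Gpr160. Genes most like Sgk1 included Fads6 (r = 0.98), and those most like Zbtb16 included Map7 and Bicd2 (r = 0.96 for both). Klf9 followed Acadl, an enzyme gene of fatty acid oxidation (r = 0.99), and Dnajb6 was also among its nearest genes. Pdk4 followed Phip (r = 0.99), Uhrf1bp1l and Rc3h1. The nearest genes were Znrf1, Fam214b and Nsa2 for Dusp1 (r = 0.93 for the first), Pcsk7, Atxn7l3 and Ptdss2 for Ddit4 (0.92) and Jade1, Acvr1c and Asb3 for Nr3c1 (0.97).

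Among 23 tested genes of 24 in a list of other glucocorticoid-induced genes, 0 passed edgeR's adjusted test. The fitted value was above 0 for 18 and below for 5 (50.7% of all genes lay above 0), with a median of 0.21. An unadjusted p under 0.05 was reached by 3, all toward higher values, as by 2.43% of all genes. Map3k6, a stress kinase gene, had the smallest p of the list (44.8 ± 5.70 CPM in WT and 61.9 ± 5.09 CPM in NPY-tet mice, log2 fold change 0.47, SE 0.13, edgeR adjusted p = 0.594), and was the only one with every NPY-tet mouse above every WT mouse, as 1.81% of all genes were. Lcn2, an iron-sequestering acute phase gene, was at 1.57 ± 0.400 CPM in WT mice and at 7.93, 1.71 and 1.93 CPM in NPY-tet replicates 1 to 3. Of the leukocyte markers, S100a8 and S100a9 were high in the same mouse, at 10.4 and 5.15 CPM. They reached at most 1.505 and 1.04 CPM in WT mice and 1.27 and 1.33 CPM in the other NPY-tet mice. In NPY-tet replicate 1 the other tested leukocyte markers lay within the WT range or just above it. The 6 tested leukocyte markers of 7 summed to 35.7 to 51.3 CPM in WT and 32.8 to 59.6 CPM in NPY-tet mice, with none at 0 in any library, and their part in the Lcn2 values was not tested. Errfi1, a feedback inhibitor of EGF receptor signalling, stood at 85.2 ± 8.05 and 105 ± 16.3 CPM, and the metallothionein gene Mt1 at 112 ± 18.8 and 133 ± 35.1 CPM. Per1, a clock gene with its own response elements, stood at 145 ± 22.6 and 173 ± 34.9 CPM. The cell cycle inhibitor gene Cdkn1a stood at 214 ± 20.2 and 225 ± 22.8 CPM, and the glutamine synthetase gene Glul at 670.1 ± 39.5 and 654 ± 150.0 CPM. Klf15 was at 38.4 ± 3.60 and 42.2 ± 9.45 CPM and the lipoprotein lipase inhibitor gene Angptl4 at 95.4 ± 49.7 and 95.7 ± 69.7 CPM. The largest fold changes of the list belonged to Trim63 (1.52, SE 0.71) and Fbxo32 (1.30, SE 0.57), both described below with the mouse that carries them. Without NPY-tet replicate 1 the list's median was 0.10. Of the inflammatory genes that glucocorticoids repress, 8 of 10 were tested, with 3 fitted higher, 5 lower and a median of -0.086. That median changed sign with single libraries left out, from -0.25 without WT replicate 3 to 0.13 without NPY-tet replicate 3, and was also above 0 without WT replicate 1 (0.027) or WT replicate 4 (0.072). An unadjusted p under 0.05 was reached by 1 of them, Nos2, toward lower values, as by 3.55% of all genes. Their smallest p-values belonged to Nos2 (2.99 ± 0.677 CPM in WT and 1.83 ± 0.267 CPM in NPY-tet mice) and Icam1 (30.7 ± 3.97 and 25.7 ± 2.87 CPM), neither of which passed. Most of the list was scarcely present, which limits what its median can show. Besides Nos2, the WT means of Cxcl1, Il1b, Ptgs2, Tnf and Ccl2 were 0.357 to 2.78 CPM, whereas Mmp9 was at 49.8 CPM. Of 8 macrophage markers 7 were fitted lower, with a median of -0.42, and none passed. An unadjusted p under 0.05 was reached by 4 toward lower values (3.55% of all genes) and by 1, Cd163, toward higher. All NPY-tet mice lay below every WT mouse for 2 of them, Mrc1 and Folr2 (1.98% of all genes). They summed to 646 to 930 CPM in WT and 444 to 735 CPM in NPY-tet mice, with none at 0 in any library, and their part in the values of the inflammatory genes was not tested.

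**Figure D4:**
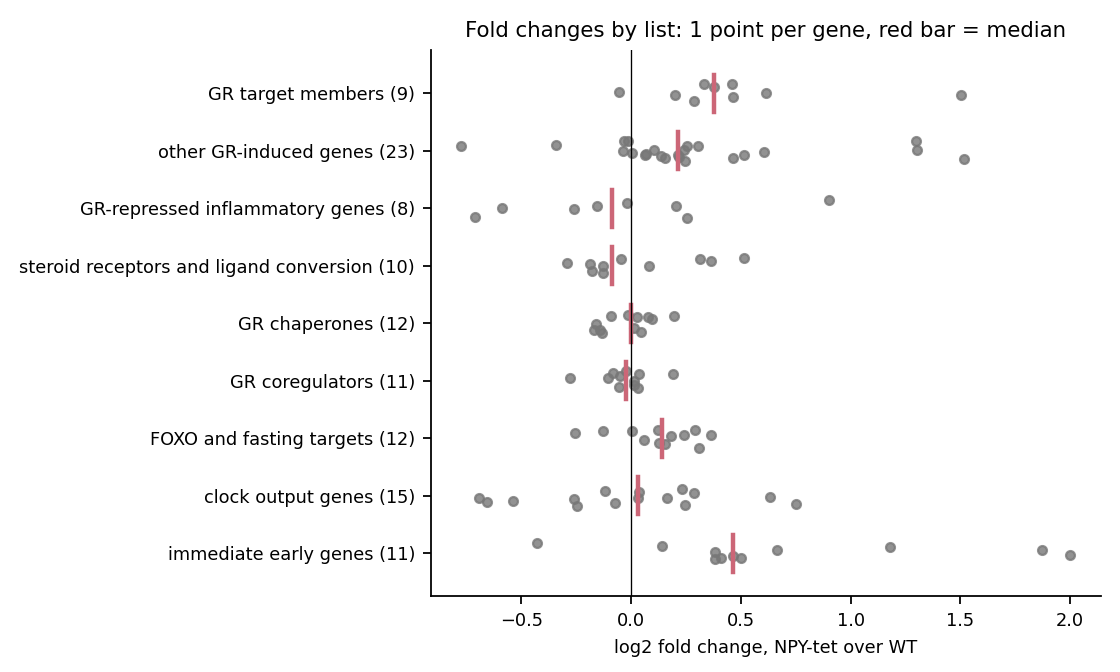
Log2 fold change of NPY-tet over WT (horizontal axis) for every tested gene of each list, 1 point per gene, with the number of genes in brackets and a red bar at the median (GR, glucocorticoid receptor). The median of the 9 genes described here, Nr3c1 included, is 0.38 and that of the immediate early genes 0.46, while chaperones and coregulators centre near 0.

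No gene of the machinery around the receptor passed. The 12 chaperone genes had a median of 0.0012, with 6 fitted higher and 6 lower, and the 11 coregulator genes a median of -0.022 (5 and 6). None of either reached an unadjusted p under 0.05 in edgeR's test, against 5.98% of all genes. Finding none in lists this short lies close to that share. Hsp90aa1 and Hsp90ab1, which fold the receptor, were at 78.4 ± 15.3 and 1338 ± 141 CPM in WT mice and at 83.7 ± 20.6 and 1411 ± 199 CPM in NPY-tet mice. Fkbp4, the immunophilin that exchanges with Fkbp5 on the complex, was at 186 ± 17.3 and 175 ± 21.8 CPM. Stip1 (118 ± 16.9 and 105 ± 5.14 CPM) and Bag1 (188 ± 16.4 and 168 ± 20.9 CPM) had the smallest p-values among chaperones. Among coregulators, Ncoa2 was at 55.1 ± 8.33 and 53.3 ± 7.68 CPM, Ncor1 at 112 ± 18.7 and 113 ± 19.7 CPM, Nrip1 at 50.3 ± 9.17 and 41.4 ± 7.03 CPM and Crebbp at 49.0 ± 8.85 and 55.9 ± 7.61 CPM.

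Of 13 genes for steroid receptors and hormone conversion or transport, 10 were tested and none passed (4 fitted higher, 6 lower, median -0.086). None reached an unadjusted p under 0.05 in edgeR's test, against 5.98% of all genes. Hsd11b1, whose enzyme regenerates active hormone, stood at 28.7 ± 6.60 CPM in WT mice and at 81.3, 16.3 and 25.0 CPM in NPY-tet replicates 1 to 3. NPY-tet replicate 1 lay above and replicate 2 below every WT mouse. Hsd11b2, whose enzyme inactivates the hormone, was scarcely present at 0.441 ± 0.155 and 0.388 ± 0.116 CPM. Nr3c2, the mineralocorticoid receptor gene, was at 10.2 ± 0.938 and 8.36 ± 1.75 CPM, far below the CPM of Nr3c1. The drug exporter genes Abcb1a (7.61 ± 2.15 and 6.96 ± 1.11 CPM) and Abcb1b (14.6 ± 0.668 and 18.8 ± 6.43 CPM) overlapped between the groups. The adrenal enzyme gene Cyp11b1 had no count in any library.

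NPY-tet replicate 1 stood apart in further genes of the lists of other glucocorticoid-induced genes (Fbxo32, Trim63 and Cebpd), fasting (Txnip) and the clock, some of which were singled out after their values were seen. The muscle atrophy ubiquitin ligase gene Fbxo32 was at 105 ± 17.8 CPM in WT mice and at 564, 107 and 104 CPM in NPY-tet replicates 1 to 3. Trim63, another such ligase gene, was at 56.4 ± 17.5 CPM in WT mice and at 377, 51.4 and 55.3 CPM. Both thus followed Pdk4 in being high in 1 mouse only. Txnip, a glucose-sensitive inhibitor of thioredoxin, was at 830 ± 226 CPM in WT mice and at 1743, 662 and 801 CPM, and the transcription factor gene Cebpd at 55.4 ± 11.2 CPM and at 128, 49.0 and 75.6 CPM. NPY-tet replicate 1 was the highest of the 8 mice for 9 of 12 FOXO and fasting targets, and for 18.2% of all genes tested. The list's median was 0.14, or -0.00084 without that mouse. The smallest p-values of that list belonged to Sesn1 (53.2 ± 3.22 and 65.1 ± 14.7 CPM) and Irs2 (58.8 ± 8.52 and 72.9 ± 18.4 CPM).

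Among 15 tested clock genes 8 were fitted higher and 7 lower (median 0.034). The clock activator gene Arntl was at 11.0 ± 1.22 CPM in WT mice and at 26.3, 12.8 and 12.1 CPM in NPY-tet replicates 1 to 3. The clock output gene Dbp was at 211 ± 61.1 CPM and at 46.2, 169 and 177 CPM. The repressor gene Nr1d1 was at 198 ± 39.3 CPM in WT mice and at 88.4, 151 and 138 CPM, below every WT mouse as 1.98% of all genes were (log2 fold change -0.65, SE 0.20, edgeR adjusted p = 0.708). The labels give neither the hour of sampling nor the feeding state, and their part in these values was not tested.

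**Figure D5:**
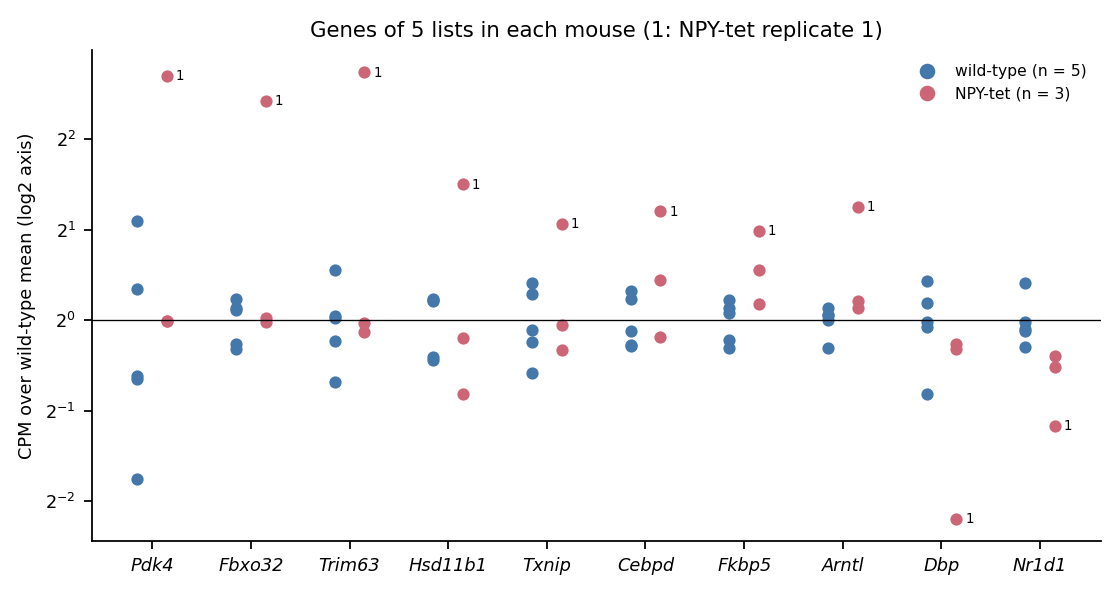
CPM relative to the WT mean (vertical log2 axis) of 10 genes from the target, other glucocorticoid-induced, ligand conversion, fasting and clock lists in each mouse, with blue points for WT (n = 5), red points for NPY-tet (n = 3) and the digit 1 at NPY-tet replicate 1. That mouse is the highest for Pdk4, Fbxo32, Trim63, Hsd11b1, Txnip, Cebpd, Fkbp5 and Arntl and the lowest for Dbp and Nr1d1.

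Dusp1 also belongs to the class of immediate early genes, of which 11 others were tested, with 0 past edgeR's adjusted test. The fitted value was above 0 for 10 of 11 (50.7% of all genes), with a median of 0.46. An unadjusted p under 0.05 was reached by 8, all higher (2.43% of all genes), and 4 lay above every WT mouse in all NPY-tet mice (1.81% of all genes). Fos stood at 25.8 ± 5.33 CPM in WT mice and at 124, 113 and 45.2 CPM in NPY-tet replicates 1 to 3 (log2 fold change 1.87, SE 0.30, edgeR adjusted p = 0.298). By DESeq2 it passed, with an adjusted p of 2.48e-07, as it did in edgeR's test within the rRNA-poor libraries, within the rRNA-rich libraries and without NPY-tet replicate 3. Egr1 stood at 55.1 ± 17.1 CPM and at 150, 139 and 85.2 CPM (log2 fold change 1.18, SE 0.27, edgeR adjusted p = 0.535). It passed by DESeq2 (adjusted p = 0.00545) and in edgeR's test within the rRNA-poor libraries (adjusted p = 0.0120). The mean log2 CPM over the list was 5.19 to 5.42 in WT mice and 6.26, 6.06 and 5.59 in NPY-tet replicates 1 to 3.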

How the data were processed

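RNA of whole skin from 5 WT and 3 NPY-tet mice was poly-T selected and sequenced without strand information, per the labels' protocols. The authors deposited raw counts for each Ensembl gene in each mouse. In the deposited FPKM, counts are divided by gene length and by 1 library size per mouse, judging by their values. The mm39 build, featureCounts 1.5.0-p3, HISAT2 2.0.5, CASAVA and DESeq2 1.20.0 are named per the submitters' processing notes, without their roles. Columns were matched to mice by title. For 6 samples the description gives another mouse number, with the same genotype, which leaves the identity of the mouse under a replicate number uncertain.

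The 2 genotypes were compared on counts in edgeR 4.0.16 under R 4.3.3. After filterByExpr (18495 genes) and TMM scaling, glmQLFit (robust, no covariate) and glmQLFTest (two-sided) were run, with Benjamini-Hochberg adjustment over all genes tested and a threshold of 0.05. CPM are TMM-scaled. SE values were derived as the absolute log2 fold change over the root of F. Mean log2 CPM use a prior count of 2. DESeq2 1.42.0, limma 3.58.1 (voom with quality weights, and log2 FPKM with pseudocounts of 1 and 0.1), other size factors and filters, tissue covariates, the ribosomal RNA sets (boundary 1% of counts) and leaving out each library were the alternatives. The edgeR procedure was also run on simulated counts with planted changes. These were drawn independently for each gene and mouse, so that run does not cover differences shared by many genes of a mouse.

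The 9 genes, the lists and the markers were chosen with earlier results of these data known. Named from the lists are genes set by name, the 2 with the smallest p per list at a mean of at least 1 CPM, and the 3 most alike for each of the 9, some of which are not reported here. Mt2 was too low to be tested. Fbxo32, Trim63, Txnip, Dbp, Cyp11b1, S100a8, S100a9, Mrc1, Folr2, Cd163 and Ergic1 lie outside that rule and were chosen after their values were seen. Each library is 1 mouse, so p-values set the difference between the groups against the spread between these mice.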

Additional observations from a re-analysis of the deposited data

Results flagged for a closer look

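Of 25 results checked for a single far library among the 5 WT mice, 2 had one, and chance alone gives such a library in a small share of groups. Nr3c1 was at 90.7 CPM in WT replicate 1, below the other 4 WT mice, which lay within 103 to 108 CPM. Bag1, a cochaperone gene, was at 216 CPM in WT replicate 3, above the other 4 WT mice at 174 to 185 CPM.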

How the results depend on the processing

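Under 23 alternatives the count of the 9 genes past the threshold stayed at 0 in all but 1, the rRNA-rich libraries alone, where it was 1 (Fkbp5). The median of the 9 ranged from 0.20 (rRNA-poor libraries alone) to 0.44, and from 0.33 to 0.42 as single libraries were left out, when 0 of the 9 passed each time. The count of all genes past the threshold, 1 at first, was 21 with no filter, 61 by DESeq2, 3 by limma-voom, 2 by limma on log2 FPKM with either pseudocount, 11 with the ribosomal RNA set as covariate, 28 with the white adipocyte score, 332 within the rRNA-rich set, 227 within the rRNA-poor set, and 1 to 8 as single libraries were left out. The cause of these shifts was not tested, and the 2 subsets compare 1 NPY-tet mouse with 4 WT mice and 2 with 1, a lone mouse being assumed to vary like the others.

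Directions turned for Klf9 (-0.084) and Pdk4 (-0.0039) without NPY-tet replicate 1, for Nr3c1 in the rRNA-rich libraries (0.17) and without NPY-tet replicate 2 (0.030), for Nr3c2 in the rRNA-poor libraries (0.059) and for Crebbp with the white adipocyte score (-0.027). As single libraries were left out, Klf9 ranged from -0.084 to 0.33, Pdk4 from -0.0039 to 1.99 and Nr3c1 from -0.15 to 0.030. In the rRNA-rich libraries Lcn2 and Arntl passed as well (edgeR adjusted p of 0.0164 and 0.0149). Medians near 0 changed sign as single libraries were left out, from -0.25 to 0.13 for the repressed inflammatory genes, -0.13 to 0.036 for steroid receptors and conversion, -0.12 to 0.071 for coregulators, -0.034 to 0.0093 for chaperones and -0.065 to 0.080 for clock genes. The fasting median ranged from -0.00084 to 0.29.

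Deviations of same-numbered mice correlated at -0.044, -0.11 and 0.30, and those of differently numbered mice at -0.45 to 0.35. So few values cannot decide whether replicate numbers pair the mice. With the replicate block 2 genes passed, 0 of them among the 9, whose median was 0.44. The number of mice limits precision more than depth, since each of the 9 genes had at least 1658 counts in every library.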
